A study of Mus musculus with 140 samples.

Results

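The mature microRNAs (miRNAs) mmu-miR-203-3p and mmu-miR-205-5p, 2 of the 1474 listed in mouse kidney small RNA libraries, are described here across every compartment, state and time. They were selected on measured values, since earlier results of these data, among them the compartment contrasts of the healthy mice, were known when they were named. The healthy levels are therefore given below as a description, with no test. Tests were made on the compartments of the sham mice and on the operated groups. These belong to the same series, so their p-values may not be free of that selection either.

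A miRNA is a short RNA that guides an Argonaute protein to messenger RNAs that pair with its seed, and it lowers their output. In mouse skin, miR-203 is switched on as cells leave the basal layer of the epidermis and represses p63, a transcription factor of basal cells. miR-205 is a miRNA of basal and stratified epithelia that keeps skin stem cells growing, and in epithelial cell lines it represses Zeb1 and Zeb2, the same transcriptional repressors that the miR-200 family targets.

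The samples were 140 libraries from 28 wild-type males (strain C57BL6/OlaHsd), 4 mice in each of 7 groups. To model sepsis from gut bacteria, mice had cecal ligation and puncture (CLP), and their kidneys were taken after 4 h, 24 h or 72 h. Sham-operated mice were taken at the same times, and healthy mice at 0 h. Each mouse gave 5 libraries, 1 of whole kidney that was not microdissected and 4 cut out by laser microdissection, of peritubular capillaries, post-capillary venules, glomeruli and arterioles. The question of the series is how septic kidney injury alters miRNAs in different microvessels of the kidney. The labels used here give no ages.

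The sequences below show which strand of each hairpin was counted and how unlike the seeds of the pair are. They come from RefSeq on GRCm38.p6, with the seed, bases 2 to 8, in capitals.
mmu-miR-203-3p: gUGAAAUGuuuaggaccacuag
mmu-miR-205-5p: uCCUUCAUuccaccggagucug
mmu-miR-203-5p: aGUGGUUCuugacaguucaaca
mmu-miR-203b-3p: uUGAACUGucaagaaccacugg
mmu-miR-205-3p: gAUUUCAGuggagugaagcuca
The hairpins of both genes follow, with the counted strand, miR-203-3p or miR-205-5p, in capitals.
Mir203: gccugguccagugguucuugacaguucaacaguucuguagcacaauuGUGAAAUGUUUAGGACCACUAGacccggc
Mir205: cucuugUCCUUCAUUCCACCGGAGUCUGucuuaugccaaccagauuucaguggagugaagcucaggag

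miR-203-3p lies on the 3' arm of its 76-base hairpin at chr12:112130927-112130948 on the plus strand. The annotation (GENCODE M21, same build) places Mir203 in no other gene, 3321 bp after the end of Aspg and 15253 bp before the start of Kif26a, both on the same strand. miR-205-5p lies on the 5' arm of its 68-base hairpin at chr1:193507503-193507524 on the minus strand, inside an exon of the long noncoding RNA 4631405K08Rik. None of the other mature miRNAs among the 1679 in the reference has the seed of either one. The nearest other mature sequence differs from miR-203-3p by 6 edits and from miR-205-5p by 7. The label calls the pair keratinocyte-type, which names where they are best known. Only miRNAs were counted, so no keratinocyte messenger RNA could be checked, and the kidney is not a skin tissue.

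Nearly all counts of each hairpin were on 1 strand. In the 28 whole kidney libraries miR-203-3p had 614864 counts in all and miR-203-5p, its partner strand, had 550. miR-205-5p had 223959 counts and miR-205-3p had 379. miR-203b-3p, read from the opposite genomic strand of the Mir203 locus, had 7142 counts in whole kidney. It pairs with miR-203-5p over a run of 20 bases and shares no such run with miR-203-3p, for which the longest is 3.

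Depth limited the 2 miRNAs to different degrees. Whole kidney libraries held 1412288 to 7921184 miRNA counts, peritubular capillary libraries 4215 to 49456, venules 15148 to 567040, glomeruli 77258 to 1352025 and arterioles 19307 to 569283. Levels are given in CPM, counts scaled to the miRNA total of the library, so each is a share of its miRNAs. In such bulk samples, fewer cells of a type and less RNA per cell cannot be told apart. miR-203-3p was counted in all 140 libraries. miR-205-5p was counted in 28 of 28 whole kidney, 19 of 28 peritubular capillary, 28 of 28 venule, 25 of 28 glomerular and 22 of 28 arteriolar libraries. In a peritubular capillary library 0 counts allow a level of 60.7 to 712 CPM (3 counts of the total), a limit that, like the single-library intervals, covers only counting error. Column names of the healthy and 4 h mice (12) and the 24 h and 72 h mice (16) differ in style, and every CLP comparison lies within 1 of these sets.

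As a share of miRNA counts, miR-203-3p followed a graded order across the kidney compartments. Whole kidney and peritubular capillaries were at the top, then venules, glomeruli and arterioles. In the 4 healthy mice whole kidney had 5225, 5559, 6177 and 6156 CPM. Peritubular capillaries had 3279, 5903, 6682 and 5457 CPM. Venules had 1533, 1706, 3671 and 2743 CPM. Glomeruli had 760, 493, 454 and 269 CPM, and arterioles had 370, 217, 565 and 673 CPM. In healthy mice whole kidney therefore overlapped with peritubular capillaries, peritubular capillaries with venules, and glomeruli with arterioles, while venules lay above glomeruli with no overlap. With the entries that name no miRNA added to the total, healthy peritubular capillaries, venules and glomeruli did not keep this order.

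**Figure D1:**
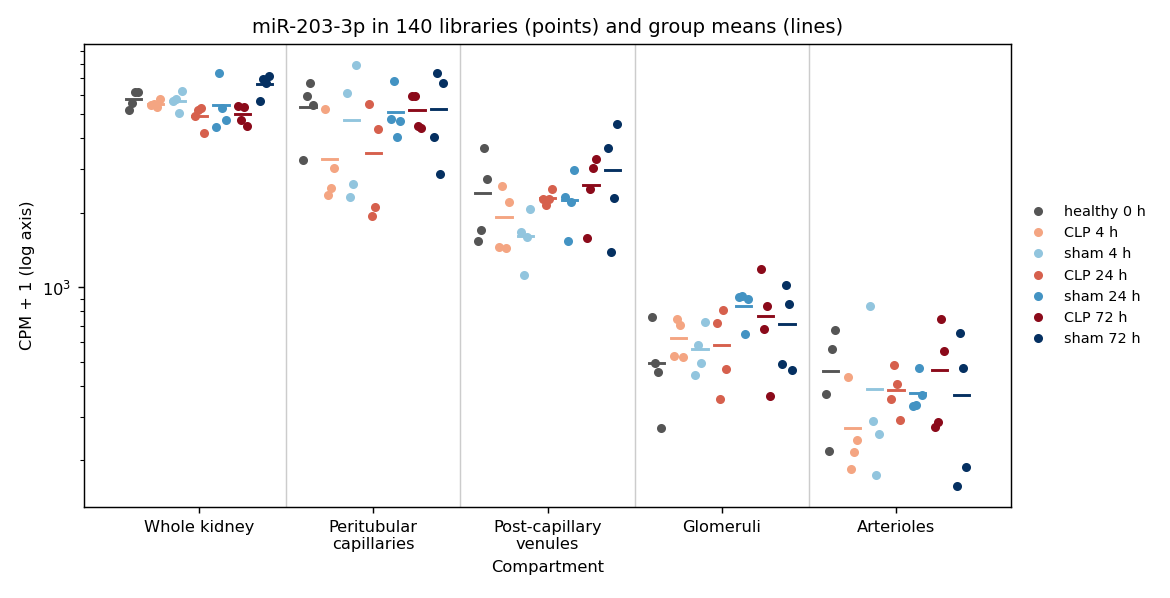
miR-203-3p in CPM plus 1 on a log axis, by compartment. Each point is 1 library, coloured by state and time, and each line is the mean of 4 mice. Whole kidney libraries lie between 4216 and 7315 CPM and arterioles between 156 and 841 CPM, and venules stand above glomeruli in all 7 groups.

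The same order held inside single mice. miR-203-3p was higher in venules than in glomeruli in 28 of 28 mice and higher in venules than in arterioles in 28 of 28. It was higher in peritubular capillaries than in venules in 25 of 28 mice and higher in glomeruli than in arterioles in 23 of 28. Whole kidney exceeded peritubular capillaries in 18 of 28 mice, so these neighbours were often reversed.

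Among the 12 sham mice miR-203-3p had a lowest, median and highest level of 2319, 4742 and 7903 CPM in peritubular capillaries. The same 3 values were 1125, 2136 and 4573 CPM in venules, 442, 686 and 1025 CPM in glomeruli, and 156, 332 and 841 CPM in arterioles. Venules lay above glomeruli without overlap, and the other neighbours in this order overlapped. Each compartment was set against the mean of the other 3 in the same mice by edgeR's quasi-likelihood test with the mouse in the model. The log2 fold change was 1.80 in peritubular capillaries (SE 0.166, edgeR adjusted p = 1.51e-12), which were higher, and venules were higher by 0.88 (SE 0.170, edgeR adjusted p = 4.46e-05). Glomeruli were lower, at -1.20 (SE 0.187, edgeR adjusted p = 9.97e-07), and so were arterioles, at -1.48 (SE 0.197, edgeR adjusted p = 2.18e-08).

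Such differences were common among miRNAs. Of 254 miRNAs tested, 56.7% passed in peritubular capillaries, 39.0% in venules, 46.1% in glomeruli and 47.6% in arterioles. A call by itself therefore did not set miR-203-3p apart from other miRNAs. In the sham 4 h mice alone the values were 2.00 in peritubular capillaries, 0.36 in venules (edgeR adjusted p = 0.639), -1.23 in glomeruli and -1.14 in arterioles (edgeR adjusted p = 0.0968). The venule and arteriole values did not pass there. In the 24 h and 72 h mice they were 0.98 and -1.53 and did pass, and the difference between the 2 sets was not tested.

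In whole kidney the 12 sham mice had a lowest, median and highest miR-203-3p level of 4450, 5696 and 7315 CPM. Set against the 4 microdissected compartments of the same mice, whole kidney was higher by 2.05 on the log2 scale (SE 0.131, edgeR adjusted p = 2.45e-20). Among 300 miRNAs tested, 61.3% passed. In every contrast of whole kidney with microdissected compartments, tissue and collection method differ together and cannot be told apart.

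Epithelial miRNAs moved the same way as miR-203-3p in most of these contrasts. The list of miR-200 family members, which mark epithelium, had 5 of 5 higher in whole kidney, 5 of 5 higher in peritubular capillaries, 5 of 5 higher in venules and 5 of 5 lower in arterioles, and 0 of 5 passed in glomeruli. Median log2 fold changes of this list were 2.27, 1.67, 1.85, -3.05 and -0.23 in the same order, beside 0.24, -0.32, 0.21, -0.08 and 0.23 over all miRNAs tested. Its members summed to between 15973 and 40038 CPM in whole kidney of sham mice and to between 0.0 and 1897 CPM in arterioles.

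Of the renal tubule list (miR-192-5p, miR-194-5p and miR-215-5p), 3 of 3 were higher in peritubular capillaries and 2 of 3 in venules, and 2 of 3 were lower in glomeruli and 2 of 3 in arterioles. In whole kidney 2 of 3 were higher and 1 was lower. Summed levels of the tubule list in sham mice were 6072 to 11933 CPM in whole kidney, 6535 to 10555 CPM in peritubular capillaries, 1452 to 7927 CPM in venules, 577 to 1830 CPM in glomeruli and 37.6 to 467 CPM in arterioles. That ranking is also the ranking of miR-203-3p. The endothelial list (miR-126a-3p and miR-126a-5p) went the other way, with 2 of 2 lower in peritubular capillaries and 2 of 2 in venules and 2 of 2 higher in arterioles and glomeruli. These calls use TMM scaling, which CPM do not. In CPM the median sum of this list in sham mice was 57158 in glomeruli and 31258 in arterioles. It was 24774 in venules and 24300 in peritubular capillaries, so arterioles lay far nearer to these than to glomeruli. The smooth muscle pair miR-143-3p and miR-145a-5p together took 403442 to 571524 CPM of the sham arteriole libraries, so other miRNAs share what is left there. The part of these other cell types in the level of miR-203-3p was not tested.

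The miRNAs whose group means over the 28 microdissected groups were most like those of miR-203-3p, among 226 with a mean of at least 100 CPM, were miR-107-3p (Pearson r = 0.974), miR-30e-5p (0.945), miR-192-5p (0.937), miR-30e-3p (0.933) and miR-221-3p (0.932). Over all 35 groups miR-107-3p again led, at 0.971, followed by miR-30e-5p, miR-192-5p, miR-221-3p and miR-378a-3p (0.931). These coefficients are descriptions, since groups of 1 compartment share their makeup and groups of 4 libraries share mice. With miR-205-5p the coefficient was 0.566 over the 28 groups and 0.727 over the 35, so the 2 members were not each other's nearest.

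miR-205-5p had its highest group means in whole kidney. Whole kidney of the healthy mice had 1062, 818, 3606 and 5122 CPM. Peritubular capillaries had 0, 0, 703 and 474 CPM, from 0, 0, 8 and 2 counts, and venules had 134, 672, 3762 and 84.0 CPM. Glomeruli had 36.2, 0, 36.3 and 73.4 CPM and arterioles had 951, 61.9, 0 and 259 CPM. Every compartment overlapped with its neighbours in the healthy mice.

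**Figure D2:**
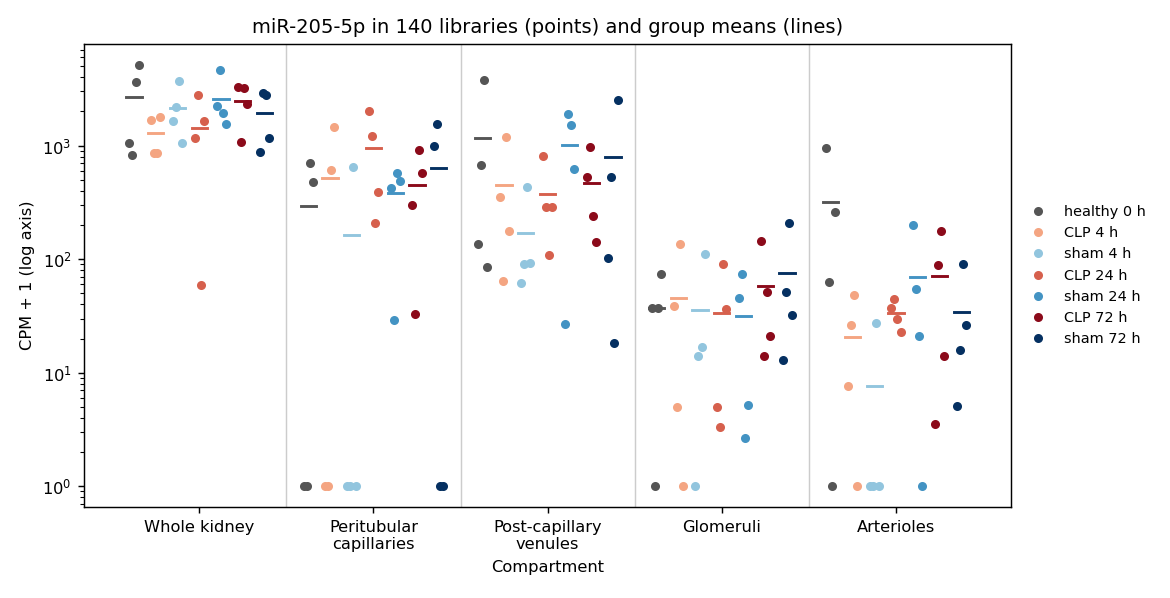
miR-205-5p in CPM plus 1 on a log axis, by compartment, with 1 point per library and a line for the mean of 4 mice. Points at 1 are libraries with 0 counts, and the whole kidney points reach from 57.9 to 5122 CPM.

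Within mice, whole kidney had more miR-205-5p than arterioles in 28 of 28, than glomeruli in 27 of 28, than peritubular capillaries in 25 of 28 and than venules in 24 of 28. Venules exceeded glomeruli in 25 of 28 mice and arterioles in 24 of 28. Venules and peritubular capillaries had no settled order, with venules higher in 16 mice and lower in 12.

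In the 12 sham mice the lowest, median and highest miR-205-5p levels were 886, 2047 and 4617 CPM in whole kidney. The same 3 values for peritubular capillaries were 0, 227 and 1550 CPM and for venules 17.3, 265 and 2540 CPM. They were 0, 23.5 and 206 CPM in glomeruli and 0, 17.4 and 201 CPM in arterioles. Whole kidney lay above glomeruli and arterioles without overlap. Against the mean of the 4 microdissected compartments, whole kidney was higher by 4.06 on the log2 scale (SE 0.471, edgeR adjusted p = 5.55e-11). Here too tissue and collection method differ together.

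Among the microdissected compartments of the sham mice, venules were higher in miR-205-5p by 2.90 on the log2 scale (SE 0.741, edgeR adjusted p = 0.00142). Glomeruli were lower, at -2.32 (SE 0.875, edgeR adjusted p = 0.0265), as were arterioles, at -2.18 (SE 0.864, edgeR adjusted p = 0.0356). Peritubular capillaries, at 1.6 (SE 0.817, edgeR adjusted p = 0.0937), did not pass. Leaving out a replicate number ended the glomerular call for 3 of the 4 numbers and the arteriolar call for 3 of the 4, with edgeR adjusted p up to 0.118 and 0.164, while the venule call was kept each time, with an edgeR adjusted p of at most 0.0322. In the sham 4 h mice alone miR-205-5p was too rare in the microdissected libraries to pass the filter on low counts, and whole kidney was higher by 5.51 (edgeR adjusted p = 9.09e-09).

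The skin and stratified epithelium list (miR-31-5p, miR-182-5p, miR-183-5p, miR-96-5p and miR-184-3p) was measured beside the pair. In whole kidney of sham mice 4 of its 4 tested members were higher than in the microdissected compartments, where 108 of all 300 miRNAs tested were called higher. miR-183-5p, miR-182-5p and miR-96-5p, which are made from 1 cluster and known from sensory cells, were higher by 4.38, 3.85 and 3.85 on the log2 scale, and miR-31-5p by 2.30. In the microdissected compartments only miR-31-5p and miR-182-5p were tested, and miR-31-5p went another way from miR-205-5p in glomeruli, where it was higher by 2.31 (edgeR adjusted p = 8.89e-05). miR-182-5p had the signs of miR-205-5p, at 2.83 in peritubular capillaries, 2.15 in venules, -2.52 in glomeruli and -2.47 in arterioles. Of these 2 members only 1 was called higher in peritubular capillaries and only 1 in venules, and 2 were called lower in arterioles. Over all 254 miRNAs tested these calls numbered 53, 66 and 67. The list summed to between 1453 and 4153 CPM in sham whole kidney and to between 0.0 and 191 CPM in sham arterioles.

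The erythroid list (miR-451a, miR-144-3p and miR-486a-5p) was higher in venules for 3 of 3 members, with a median log2 fold change of 2.09, and lower in whole kidney for 3 of 3. Of all miRNAs tested, 66 of 254 were called higher in venules and 76 of 300 lower in whole kidney. Levels of red cell miRNAs in venules therefore ran with those of miR-205-5p, and in whole kidney against them, and their part in its level was not tested. Over the 28 microdissected groups the miRNAs most like miR-205-5p were miR-451a (Pearson r = 0.817), miR-375-3p (0.779), miR-190a-5p (0.775), miR-99a-5p (0.737) and miR-425-5p (0.735). Over all 35 groups they were miR-182-5p (0.864), miR-99a-5p (0.860), miR-183-5p (0.830), miR-375-3p (0.791) and miR-25-3p (0.789). The names changed with the groups used, and the coefficients are descriptions only.

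The effect of CLP was tested against sham within each compartment and time, over all miRNAs that passed the filter. In edgeR neither miRNA passed in any of the 15 comparisons, so 0 of 30 tests passed, 1 had an unadjusted p under 0.05 and DESeq2 called 1. Of the tests of all miRNAs in these comparisons 7.16% had an unadjusted p under 0.05, a larger share than in the pair. For miR-203-3p the largest fold change relative to its error was in whole kidney at 72 h, where CLP mice had 5399, 4745, 5373 and 4478 CPM, against 5635, 6967, 6712 and 7134 CPM in sham mice. All 4 CLP levels lay below all 4 sham levels, and the share of all miRNAs separated in this way was not counted. An unadjusted edgeR p under 0.05 was found in that comparison for 68 of 542 miRNAs, miR-203-3p among them. The log2 fold change of miR-203-3p was -0.40 (SE 0.135, edgeR adjusted p = 0.135).

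This value sat close to the threshold and depended on the fit. DESeq2 gave -0.44 (DESeq2 adjusted p = 0.0499), and edgeR on the 8 compared libraries alone gave -0.45 (edgeR adjusted p = 0.0338). Scaled to the 10 entries that name no miRNA, the fold change was 0.43 (edgeR adjusted p = 0.201), below a shift of 0.87 in the median of all miRNAs under that scaling. Without each mouse in turn it ranged from -0.54 to -0.38. In the same libraries the tubule list summed to a lowest, median and highest value of 6797, 7401 and 9587 CPM in CLP mice, against 8553, 10919 and 11933 CPM in sham mice. The miR-200 family summed to 31562, 34502 and 35914 CPM in CLP mice, against 27367, 34088 and 34669 CPM in sham mice. Their part in the miR-203-3p difference was not tested.

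Earlier whole kidney groups overlapped. At 4 h miR-203-3p had 5427, 5484, 5327 and 5764 CPM in CLP mice, against 5643, 5749, 5043 and 6187 CPM in sham mice. At 24 h it had 4911, 5207, 5318 and 4216 CPM in CLP mice, against 4450, 7315, 5313 and 4741 CPM in sham mice. The log2 fold changes were -0.05 (SE 0.135) and -0.21 (SE 0.135), with edgeR adjusted p = 0.999 and 0.629. Its partner strand miR-203-5p had 0.01 at 72 h (SE 0.301) and miR-203b-3p had -0.64 (SE 0.237, edgeR adjusted p = 0.202).

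**Figure D3:**
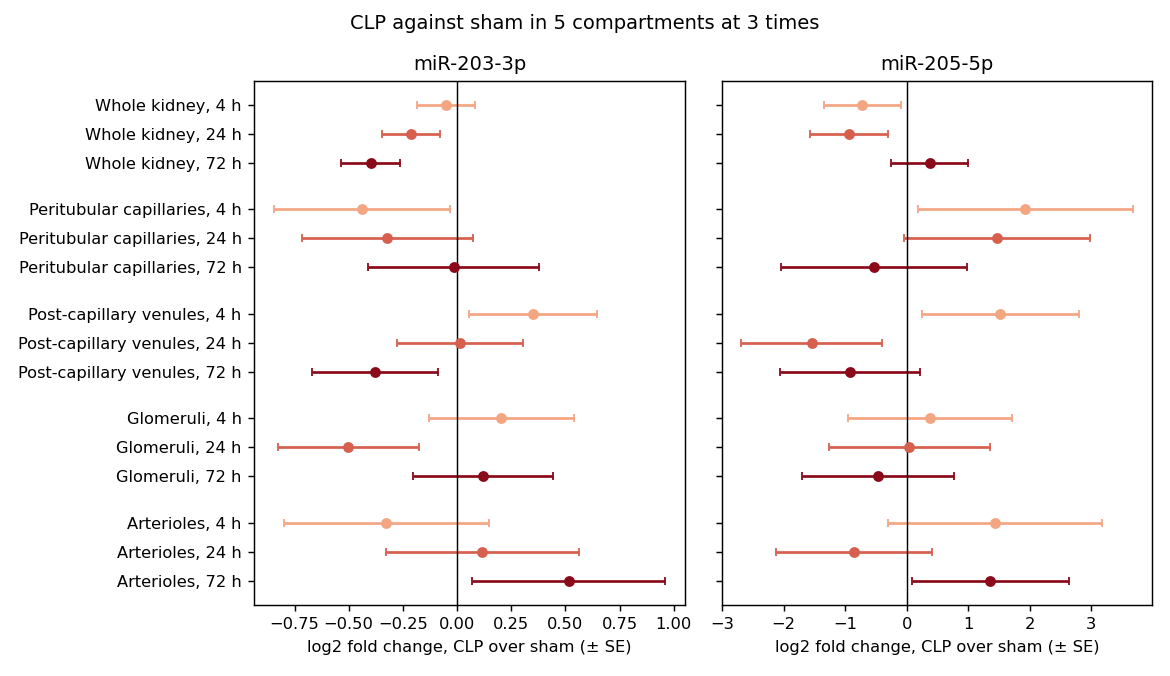
Log2 fold change of CLP over sham from edgeR for miR-203-3p and miR-205-5p in each compartment at 4 h, 24 h and 72 h. Points are estimates and bars are 1 SE, and the scale of the miR-205-5p panel is wider. None of the 30 values passed the threshold of 0.05 on the adjusted p.

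miR-205-5p in whole kidney had 1686, 858, 863 and 1780 CPM in CLP mice at 4 h, against 1654, 2165, 3677 and 1063 CPM in sham mice. At 24 h it had 1155, 2812, 57.9 and 1649 CPM in CLP mice, against 2239, 4617, 1929 and 1537 CPM in sham mice. At 72 h it had 3256, 1069, 3196 and 2321 CPM in CLP mice, against 886, 2889, 2803 and 1161 CPM in sham mice. The groups overlapped at every time. The log2 fold changes were -0.72 at 4 h (SE 0.631), -0.93 at 24 h (SE 0.632) and 0.38 at 72 h (SE 0.627), with edgeR adjusted p = 0.999, 0.636 and 0.843. Its partner strand miR-205-3p had -2.14, -0.97 and 0.22 at the same times (edgeR adjusted p = 0.875, 0.640 and 0.922).

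With no filter on low counts the fitted error was smaller, an SE of 0.162 at 4 h and at 24 h, and edgeR called miR-205-5p lower in CLP at 4 h (-0.70, edgeR adjusted p = 0.00811) and at 24 h (-0.84, edgeR adjusted p = 4.68e-05). The CPM values above, which no filter changes, overlap at both times.

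In the microdissected compartments the CLP fold changes of miR-203-3p ran from -0.50 (SE 0.325, glomeruli at 24 h) to 0.51 (SE 0.447, arterioles at 72 h). Glomeruli at 24 h had 717, 352, 807 and 469 CPM in CLP mice, against 915, 919, 645 and 896 CPM in sham mice, and these groups overlapped. For miR-205-5p the range was from -1.54 (SE 1.15, venules at 24 h) to 1.93 (SE 1.75, peritubular capillaries at 4 h). The value in peritubular capillaries rests on 0, 0, 6 and 50 counts in CLP mice, against 0, 0, 4 and 0 counts in sham mice, so it comes mainly from 1 library.

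Few miRNAs passed in these comparisons at all. In whole kidney 0.185%, 0.738% and 1.85% of 542 miRNAs passed at 4 h, 24 h and 72 h. In peritubular capillaries the shares were 0.0%, 0.498% and 0.995% of 201, and in venules 0.0%, 0.0% and 1.4% of 285. In glomeruli they were 0.592%, 0.0% and 0.592% of 338, and in arterioles 0.36%, 0.0% and 0.0% of 278. Almost all miRNAs, like this pair, were therefore not called. Of the lists, 1 of 5 miR-200 family members passed in arterioles at 4 h, namely miR-429-3p, higher in CLP mice (edgeR adjusted p = 0.0231), and 0 of 5 in each of the rest. It had 16, 17, 0 and 22 counts there in CLP mice, against 0, 0, 0 and 0 counts in sham mice. The sham group was also lower than the healthy one (edgeR adjusted p = 0.00555), which had 15, 5, 9 and 7 counts. In the skin and stratified epithelium list 0 of 36 edgeR tests passed, with 5 tested members in whole kidney and 1 to 3 elsewhere, and 1 had an unadjusted p under 0.05.

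Whether the CLP effect differed between the microdissected compartments was tested by an F test with 3 degrees of freedom over all microdissected sham and CLP libraries, with the mouse in the model. F for miR-203-3p was 0.415, 0.821 and 0.723 at 4 h, 24 h and 72 h, and for miR-205-5p it was 0.390, 0.771 and 0.460, with edgeR adjusted p of at least 0.95. Over 383 miRNAs 0.261%, 0.0% and 0.0% passed at these times. The CLP effect at 72 h minus that at 24 h was 1.31 for miR-205-5p in whole kidney (SE 0.889, edgeR adjusted p = 0.841) and -0.19 for miR-203-3p (SE 0.191, edgeR adjusted p = 0.897). With the filter on low counts, no miRNA passed that test in edgeR or DESeq2 in any compartment (0.0% in whole kidney, 0.0% in peritubular capillaries, 0.0% in venules, 0.0% in glomeruli and 0.0% in arterioles). At an unadjusted edgeR p under 0.05 there were 35, 4, 8, 22 and 5 miRNAs in the same order, and 0 of the 10 tests of the pair. With no filter edgeR called miR-205-5p in whole kidney (1.21, edgeR adjusted p = 0.000148).

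The operation itself was set against no operation at 4 h. In arterioles miR-205-5p had 0, 0, 2 and 0 counts in sham mice, against 113, 8, 0 and 5 counts in healthy mice. The groups overlapped at 0. As a share of the pooled miRNA counts the ratio of sham over healthy mice was 0.0223 (95% exact interval 0.00267 to 0.0822, counting error only). The fitted fold change, -5.05 on the log2 scale (SE 1.68, edgeR adjusted p = 0.133), did not pass, where 1.44% of 278 miRNAs did. In venules it had 60.8, 88.9, 429 and 92.1 CPM in sham mice, against 134, 672, 3762 and 84.0 CPM in healthy mice (-2.72, SE 1.28, edgeR adjusted p = 0.546). The miR-203-3p fold changes lay between -0.48 in venules and 0.13 in glomeruli. With the filter on low counts neither miRNA passed in any compartment in edgeR or DESeq2. With no filter edgeR called miR-205-5p lower in sham mice in arterioles (-4.99, edgeR adjusted p = 0.035) and venules (-2.70, edgeR adjusted p = 0.0147), although the groups overlap in both. At an unadjusted p under 0.05 there were 2 of the 10 filtered edgeR tests of the pair, beside 8.03% of the tests of all miRNAs. The shares of all miRNAs that passed after adjustment were 0.185% in whole kidney, 0.0% in peritubular capillaries, 0.0% in venules and 0.0% in glomeruli.

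miR-205-5p varied widely between mice of the same group. In whole kidney its standard deviation within groups was 1.23 on the log2 scale. Of the miRNAs with a mean of at least 100 CPM, 0 had a larger one and 204 a smaller one, and the median was 0.226. miR-383-5p followed at 0.937. miR-203-3p had 0.168, with 163 miRNAs above it and 41 below.

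**Figure D4:**
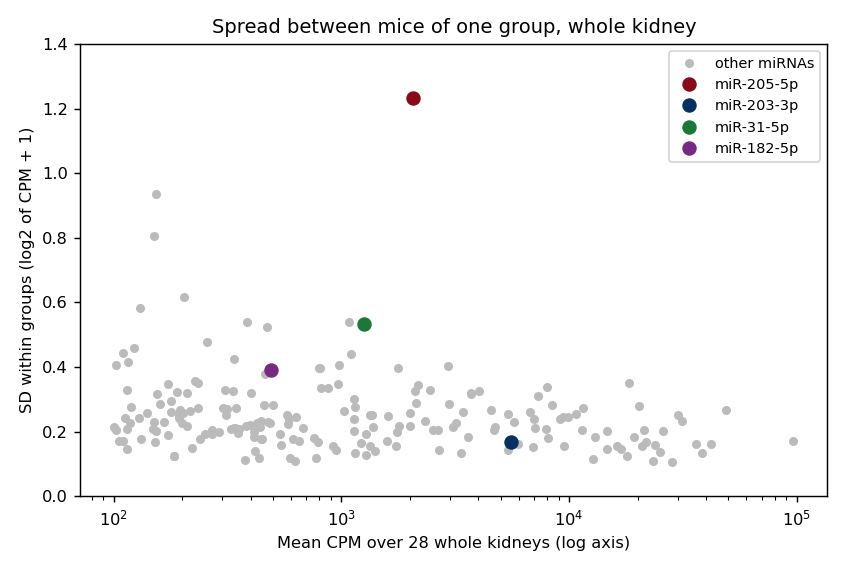
Within-group standard deviation of log2(CPM + 1) in whole kidney against mean CPM on a log axis, for miRNAs with a mean of at least 100 CPM over 28 libraries. miR-205-5p lies at 1.23, above every other point, and miR-203-3p at 0.168, below the median of 0.226.

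The lowest whole kidney library, CLP 24 h replicate 3, had 459 counts of miR-205-5p in 7921184, or 57.9 CPM (95% exact interval 52.8 to 63.5), and that library had the most miRNA counts of all. The highest, healthy replicate 4, had 10553 counts in 2060261, or 5122 CPM (5025 to 5221). Without the lowest library the standard deviation was 0.836, and still no other miRNA had a larger one. In the same library miR-203-3p was at 5318 CPM, the highest of its group.

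miR-31-5p varied together with miR-205-5p from mouse to mouse. Across the 28 whole kidneys log2 levels of miR-205-5p and miR-31-5p, a miRNA of stratified epithelium, had Pearson's r = 0.785 and Spearman's rho = 0.826, each with permutation p = 1e-05, the smallest that 100000 permutations can give, and an adjusted p of 0.0002 over 20 relations. Without the 2 mice farthest from the median of miR-31-5p, r was 0.771, and without each mouse in turn it ranged from 0.768 to 0.807. Within the 12 healthy and 4 h mice r was 0.912, and within the 16 mice of 24 h and 72 h it was 0.845. The lowest miR-205-5p library also had the lowest miR-31-5p level, 504 CPM.

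The miR-183 cluster ran with miR-205-5p less closely. For miR-183-5p r was 0.499 (permutation p = 0.00492, adjusted p = 0.0328) and rho 0.488 (permutation p = 0.00949, adjusted p = 0.0392), r was 0.484 without the 2 farthest mice, and r within the 2 sets was 0.755 and 0.575. For miR-182-5p r was 0.495 (permutation p = 0.00477, adjusted p = 0.0328), rho 0.451 (permutation p = 0.0167, adjusted p = 0.0557), r without the 2 farthest mice 0.50, and r within the sets 0.823 and 0.594. For miR-96-5p r was 0.407 (permutation p = 0.0307, adjusted p = 0.123), rho 0.489 (permutation p = 0.00979, adjusted p = 0.0392), r without the 2 farthest mice 0.429, and r within the sets 0.465 and 0.460. miR-184-3p, at a mean of 6.63 CPM, had r = 0.296 (permutation p = 0.122, adjusted p = 0.305), rho = 0.424 (permutation p = 0.0251, adjusted p = 0.0717), r = 0.230 without the 2 farthest mice, and 0.650 and 0.250 within the sets. Such relations were not particular to this list. In deviations from group means, chosen after seeing the data, miR-31-5p led at r = 0.799. Outside the list, miR-383-5p (0.702), miR-133a-3p (0.661) and miR-296-5p (0.656) stood above miR-183-5p (0.624). The smooth muscle miR-145a-5p (0.487) stood above miR-96-5p (0.456) and miR-184-3p (0.453).

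**Figure D5:**
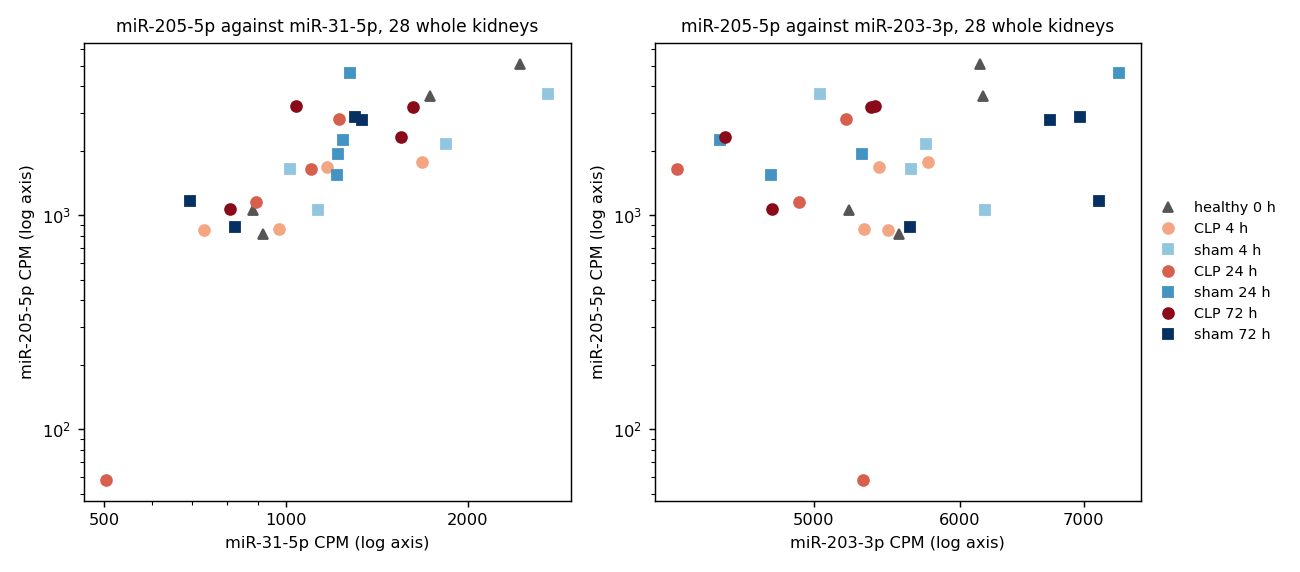
miR-205-5p against miR-31-5p (left) and against miR-203-3p (right), in CPM on log axes, with 1 point per whole kidney library of 28 mice. On the left the points rise together (r = 0.785), and on the right they do not (r = 0.190), and the lowest point in both is CLP 24 h replicate 3.

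miR-203-3p did not follow miR-205-5p across mice, with r = 0.190 (permutation p = 0.333, adjusted p = 0.62), rho = 0.194 (permutation p = 0.321, adjusted p = 0.535), r = 0.150 without the 2 farthest mice, and 0.314 and 0.170 within the sets. The miR-205-5p level of whole kidney was also compared with that of the same mouse's microdissected libraries. Its r was 0.176 with peritubular capillaries, 0.111 with venules, 0.061 with glomeruli and -0.01 with arterioles, with adjusted permutation p from 0.665 to 0.963, and rho ran from 0.020 to 0.312. Without each mouse in turn r ranged from 0.140 to 0.365 with peritubular capillaries, from 0.0077 to 0.175 with venules, from 0.0011 to 0.331 with glomeruli and from -0.09 to 0.047 with arterioles. Within the 2 sets of mice r was 0.560 and -0.00034 with peritubular capillaries, 0.103 and 0.122 with venules, 0.184 and 0.00032 with glomeruli, and -0.12 and 0.088 with arterioles. The summed miR-200 family, which was 12668 to 21817 CPM in whole kidney of the healthy and 4 h mice and 27367 to 40038 CPM in the 24 h and 72 h mice, had r = -0.07 with miR-205-5p (permutation p = 0.75, adjusted p = 0.807). That r pools 2 sets whose sums do not overlap. Within the sets r was -0.34 in the healthy and 4 h mice and -0.10 in the 24 h and 72 h mice.

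For miR-203-3p in whole kidney the summed tubule list gave the highest r of its 7 own relations, r = 0.474 (permutation p = 0.0107, adjusted p = 0.0535) and rho = 0.498 (permutation p = 0.00753, adjusted p = 0.0392). Without the 2 farthest mice r was 0.616. Within the healthy and 4 h mice it was 0.065, and within the 24 h and 72 h mice 0.631, so the relation did not hold in the first set. The summed smooth muscle pair gave r = 0.328 (permutation p = 0.0878, adjusted p = 0.251), rho = 0.553 (permutation p = 0.00266, adjusted p = 0.0266), r = 0.341 without the 2 farthest mice, and -0.12 and 0.520 within the sets. The permutations shuffled all mice, so differences between groups enter these p-values. With deviations from group means, chosen after seeing the data, the tubule list had r = 0.358 (permutation p = 0.0606, adjusted p = 0.173). The smooth muscle pair then had r = 0.242 (permutation p = 0.217, adjusted p = 0.362).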

How the data were processed

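The authors deposited raw counts of reads per mature miRNA and library, with no normalization, per the file header. Libraries were made with a RealSeq kit, per the labels' protocols. FastQC 0.11.9, MultiQC 1.10, cutadapt 3.3 and Bowtie 1.3.0 and the builds GRCm38.p6 and GRCm39 are named in the submitters' processing notes, while no counting tool or rule for reads with several matches is named there. All 140 columns were matched to samples by name, and 0 were left unmatched. The 10 entries whose names start with # name no miRNA. They held 0.907% to 14.0% of counts in whole kidney and 46.5% to 99.7% in microdissected libraries, and were left out of CPM, library sizes and tests.

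From these counts, edgeR 4.0.16 (R 4.3.3; TMM scaling, filterByExpr with minimum count 10 and minimum total count 15) was fitted per compartment to 28 libraries of 7 groups, which share 1 estimate of the spread. Within-mouse contrasts of the sham mice used 48 or 60 libraries, and the test between compartments 112, each with the mouse as a block, since the labels give the libraries of a mouse 1 number. Adjusted p is Benjamini-Hochberg over all miRNAs of a comparison, with a threshold of 0.05. The SE given with an edgeR value is its absolute log2 fold change divided by the square root of F, so it is approximate. Both miRNAs passed the filter in every compartment, so no single-miRNA permutation test was needed. The replicate is the mouse, and no 2 libraries were identical. Correlations used log2(CPM + 1) with 100000 permutations over all mice, not within groups. The fits per compartment were also run with other scalings, filters and sets of libraries and with DESeq2 1.42.0. So were the sham contrasts, except for the scaling to the # entries. The test between compartments was rerun only with RLE factors, without the mouse in the model, without peritubular capillaries and without each replicate number. The edgeR and DESeq2 steps were tested on simulated data.

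The named miRNAs were the 2 members, other rows of the same hairpins, members of the lists of cell type markers, and for each member the 5 most alike by Pearson's r over group means. Members and lists were chosen with earlier results of these data known.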

Additional observations from a re-analysis of the deposited data

Results flagged for a closer look

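Of 70 groups of 4 libraries, 7 held a library far from the other 3, by the ratio of its gap to the group's range. For normally distributed values chance gives about 1 in 20 groups. Sparse counts are not such values, and a group where all libraries but 1 are at 0 is always flagged. The number flagged can therefore not be set against that share. The flagged miR-203-3p libraries were the arterioles of sham 4 h replicate 1 and the glomeruli of sham 24 h replicate 3. The first had 841 CPM (30 counts), against 173 to 287 CPM in the others. The second had 645 CPM, against 896 to 919 CPM.

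For miR-205-5p, 4 of the 5 were in the sham 4 h group. Arterioles of replicate 3 had 26.6 CPM from 2 counts and its peritubular capillaries 653 CPM from 4 counts, where the others had 0. Its venules had 429 CPM from 15 counts, against 60.8 to 92.1 CPM. Glomeruli of replicate 4 had 109 CPM from 28 counts, against 0 to 15.99 CPM. Healthy replicate 3 had 3762 CPM from 82 counts in venules, against 84.0 to 672 CPM. These values rest on few counts.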

How the results depend on the processing

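Values are log2 fold changes unless named otherwise. Directions and calls held under every setting run for miR-203-3p in whole kidney, peritubular capillaries and glomeruli of sham mice. They also held for miR-205-5p in whole kidney of sham mice. The venule call of miR-205-5p held too, but could not be fitted in the sham 4 h mice alone. Scaling to the # entries was not run for these contrasts between compartments. For the other results the cause of a changed direction or call was not tested. Depth limits miR-205-5p in the microdissected libraries, above all in peritubular capillaries, where a library held 4215 to 49456 miRNA counts, and each group had 4 mice.

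In the sham mice, miR-205-5p in peritubular capillaries passed with DESeq2 (1.76), plain totals (2.33) and no filter (1.61). Its arteriole call was lost without the mouse in the model (-1.77, no replicate block) and in the 24 h and 72 h mice alone (-2.01). In the sham 4 h mice alone miR-203-3p lost the call in arterioles (-1.14) and venules (0.36). Leaving out each replicate number, miR-205-5p ranged from -2.57 to -1.95 in glomeruli and from -2.58 to -1.63 in arterioles.

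In CLP against sham, miR-203-3p in whole kidney at 72 h passed with DESeq2 (-0.44) and with the compared libraries alone (-0.45). With no filter miR-205-5p passed in whole kidney at 4 h (-0.70) and 24 h (-0.84) and in the change between 24 h and 72 h (1.21), and in sham 4 h against healthy in arterioles (-4.99) and venules (-2.70).

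Scaling to the # entries, which put the median of all miRNAs between -1.48 and 0.87, turned miR-203-3p in arterioles at 4 h (0.44) and 24 h (-0.10), glomeruli at 4 h (-0.22), and whole kidney at 24 h (0.21) and 72 h (0.43). It also turned sham 4 h against healthy in whole kidney (0.35), the change between 24 h and 72 h in whole kidney (0.22) and peritubular capillaries (-0.95), and, for miR-205-5p, glomeruli at 4 h (-0.38) and 24 h (-0.97) and the change in venules (-0.79).

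miR-203-3p in peritubular capillaries at 72 h, -0.01 in the reported fit, turned with DESeq2 (0.073), RLE factors (0.073), no filter (0.051), the replicate block (0.0092), the compared libraries alone (0.020) and without libraries under 20000 counts (0.057). Sham 4 h against healthy turned for miR-205-5p in glomeruli with DESeq2 (-0.053) and for miR-203-3p in arterioles without libraries under 20000 counts (0.089). The replicate block turned miR-205-5p in glomeruli at 4 h (-0.014), 24 h (-1.08) and in the change (0.95), and in venules in the change (-0.20). CLP and sham mice are different animals that share only a number, and 11 of 60 same-numbered pairs had deviations correlated over 0.1. The block changed no call of the pair; over all miRNAs it gave 1 call in venules at 72 h, against 4, and 0 in peritubular capillaries at 72 h, against 2.

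Leaving out 1 mouse at a time turned 21 of the results, none of them called, with these lowest and highest values. In CLP against sham, miR-203-3p ranged from -0.72 to 0.25 in arterioles at 4 h, from -0.092 to 0.35 in glomeruli at 72 h, from -0.29 to 0.12 in peritubular capillaries at 72 h, from -0.061 to 0.27 in venules at 24 h and from -0.25 to 0.013 in whole kidney at 24 h. miR-205-5p ranged from -1.21 to 0.55 in arterioles at 24 h, from -1.52 to 2.08, -0.90 to 0.95 and -1.35 to 0.84 in glomeruli at 4 h, 24 h and 72 h, from -1.05 to 0.47 in peritubular capillaries at 72 h and from -1.48 to 1.14 in venules at 72 h. In the change between 24 h and 72 h, miR-203-3p ranged from -0.011 to 0.58 in arterioles, and miR-205-5p from -1.40 to 0.78 in glomeruli and from -0.060 to 2.57 in venules. In sham 4 h against healthy, miR-203-3p ranged from -0.68 to 0.20 in arterioles, from -0.10 to 0.45 in glomeruli, from -0.50 to 0.048 in peritubular capillaries and from -0.055 to 0.12 in whole kidney, and miR-205-5p from -1.74 to 0.53 in glomeruli, from -5.84 to 0.44 in peritubular capillaries and from -0.63 to 0.21 in whole kidney.

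With the # entries in the total, mean healthy miR-203-3p was 5129 CPM in whole kidney, 26.1 in peritubular capillaries, 25.5 in venules, 26.1 in glomeruli and 8.67 in arterioles, and miR-205-5p was 1.35 in glomeruli. Peritubular capillaries, venules and glomeruli were then nearly level, so the graded order of miR-203-3p among them was not kept. With deviations from group means, chosen after seeing the data, r of miR-205-5p between whole kidney and arterioles was 0.0043.

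Counts of called miRNAs also moved. In whole kidney at 72 h edgeR called 10, DESeq2 22, the compared libraries alone 30 and the # scaling 277. The # scaling called 49 in peritubular capillaries at 72 h, against 2, and DESeq2 called 15 in glomeruli at 4 h, against 2. With no filter whole kidney of sham mice gave 422 calls, against 184, and the sham 4 h mice alone gave 93 there and 37 in arterioles, against 121. Plain totals gave 15 higher and 152 lower in sham arterioles, against 54 and 67, and 94 higher and 40 lower in peritubular capillaries, against 53 and 91. The median of all miRNAs was then -1.08 in arterioles, against -0.08, and 0.43 in peritubular capillaries, against -0.32. DESeq2 gave 97 higher and 97 lower in sham whole kidney, against 108 and 76.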

Other observations

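Among whole kidney miRNAs with a mean of at least 100 CPM, the 5 whose deviations from group means over the 28 mice were most like those of miR-205-5p were miR-31-5p (Pearson r = 0.799), miR-383-5p (0.702), miR-182-5p (0.662), miR-133a-3p (0.661) and miR-296-5p (0.656). For miR-203-3p they were miR-10a-5p (0.611), miR-10b-5p (0.602), miR-146b-5p (0.569), miR-582-3p (0.504) and miR-145a-3p (0.499). This comparison was chosen after seeing the data, and the coefficients are descriptions, with no test.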
